A study of Homo sapiens with 24 samples.

Results

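DNA replication and nucleotide supply are described here through 43 genes, chosen by name from a list of replication proteins and enzymes of deoxynucleotide synthesis. All 43 were found among the 61251 genes of the table, and all 43 were among the 13729 genes that entered the tests, having a mean of 1 FPKM or more in some group. FPKM is a level per length, the reads of a gene scaled by its length and by the depth of the library. The cells were KYSE450, a long-established cell line from a human squamous carcinoma of the oesophagus, kept in RPMI-1640 medium with 10% fetal bovine serum. Messenger RNA was sequenced in 4 groups of 6 libraries: the parental line, its drug tolerant persister cells (DTP, cells that outlive a drug without having become resistant), a chemoresistant line titled KYSE450DDP, and the DTP cells of that line. The labels give no treatment for the sequenced cultures in any group, name no drug or dose, and do not say whether the resistant line is 1 clone. Nor do they say whether each library had its own culture. The p-values therefore rest on a spread between libraries that could be technical.

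Before a cell copies its DNA, the origin recognition complex, CDC6 and CDT1 load the ring-shaped MCM2-7 helicase onto origins, a step called licensing. CDC45 and the GINS complex then turn the loaded ring into an active helicase, primase and the DNA polymerases copy both strands, the sliding clamp PCNA holds the polymerases on DNA, and FEN1 and LIG1 join the short pieces of the lagging strand. Ribonucleotide reductase and thymidylate synthase make the building blocks. Many of these genes are transcribed at the entry to S phase under E2F transcription factors, so their RNA is common in dividing and scarce in resting cells. In bulk RNA, fewer cells in S phase and less RNA per such cell cannot be told apart.

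Depth ran from 14947379 to 37989457 assigned reads per library, and each of the 43 genes had between 88 and 21436 reads in each library. The squamous markers were high in every group (summed 2770 to 5420 FPKM over 10 markers), while the 6 fibroblast markers summed to at most 19.2 FPKM and the leukocyte, endothelial, glandular and erythroid lists to at most 2.61 FPKM. Single libraries deviated from their groups along the GC content of genes (Spearman rho from -0.64 to 0.655 by library). In read counts, parental libraries 5 and 6, parental DTP libraries 5 and 6 and chemoresistant libraries 2 and 3 stood apart (mean chi-square per gene against the rest of their group 13.4 to 21.7, 16.1 to 31.1 and 5.96 to 24.7, among the rest at most 6.75, 9.67 and 6.11). The second chemoresistant DTP library stood furthest apart (42.6 to 60.7, among the rest at most 9.28). It also differed by transcript length, with a rho of -0.523 against 0.133 to 0.408 in the other 5, and held 9 of the 17 members' values that lay far from their group. Of 3 tested RNAs that stay in the nucleus, NEAT1 and OIP5-AS1 were higher in parental DTP (1.57 and 0.71) and in chemoresistant cells (1.68 and 1.15) than in parental cells, on the log2 scale. MALAT1 was higher in parental DTP (0.46, and 0.27 and not called with the scaling alternative described below) and lower in chemoresistant cells (-0.52). MALAT1 and NEAT1 rose by 0.41 and 0.26 in chemoresistant DTP cells. All 8 tested histone genes whose RNA normally lacks a poly(A) tail were higher in parental DTP (7 with the scaling alternative) and in chemoresistant than in parental cells. Of all tested genes, 45.8% were higher in parental DTP and 48.2% in chemoresistant cells (32.3% and 38.7% with the scaling alternative). The part of the nuclear and histone RNAs in the results was not tested. Some counts with the GC trend removed, or without the libraries that stood apart, are given with the results or in the closing section.

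Promoter sequences of 4 members are shown because the E2F site is the feature that replication genes are best known to share. The RefSeq table (GRCh38.p14, 250 bases before to 50 after the annotated start) held windows for 38 of the 43 genes. They were searched on both strands for the E2F words TTTCCCGC, TTTGGCGC, TTTCGCGC and TTTGCCGC and for the CCAAT box, CCAAT. The stretches below lie before the start, read 5′ to 3′ in the sense of the gene, and overlap no exon of GENCODE 29. Capitals mark E2F words and CCAAT boxes. They come from MCM3 (chr6:52284882-52284992, minus strand), MCM6 (chr2:135876444-135876643, minus strand), PCNA (chr20:5126627-5126785, minus strand) and POLA1 (chrX:24693718-24693917, plus strand).
MCM3: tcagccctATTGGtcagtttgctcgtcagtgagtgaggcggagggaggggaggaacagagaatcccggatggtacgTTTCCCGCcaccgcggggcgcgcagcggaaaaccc
MCM6: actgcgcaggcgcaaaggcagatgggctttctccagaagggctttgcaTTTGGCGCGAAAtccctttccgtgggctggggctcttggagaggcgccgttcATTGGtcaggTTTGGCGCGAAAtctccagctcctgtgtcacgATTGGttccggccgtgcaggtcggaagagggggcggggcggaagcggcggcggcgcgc
PCNA: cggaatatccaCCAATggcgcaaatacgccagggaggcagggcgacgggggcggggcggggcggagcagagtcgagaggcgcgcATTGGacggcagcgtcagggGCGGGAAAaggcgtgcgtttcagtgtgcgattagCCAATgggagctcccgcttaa
POLA1: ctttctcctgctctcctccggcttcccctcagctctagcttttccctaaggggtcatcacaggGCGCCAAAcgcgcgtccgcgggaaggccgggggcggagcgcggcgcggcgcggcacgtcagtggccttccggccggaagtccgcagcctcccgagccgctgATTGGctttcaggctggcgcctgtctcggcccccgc
The MCM6 stretch held a pair of blocks in which TTTGGCGC on the sense strand overlaps TTTCGCGC on the other, beginning 152 and 90 bases before the start. The PCNA stretch held 1 E2F word, on the antisense strand, between CCAAT boxes. At least 1 E2F word was found in 20 of the 38 windows (52.6%), against 3.31% of all 35116 windows of the table and 5.12% of the 13290 windows of tested genes. The CCAAT box was found in 63.2% of the members' windows, in 34.6% of all windows and in 35.1% of those of tested genes. The words TTTGAA and TTTAAA of the cell cycle homology region, which marks genes of mitosis, were found in 5.26% of the members' windows (RRM1 and RRM2). They were found in 24% of all windows and in 16.5% of those of tested genes. A match is a description of letters, and no binding was measured here.

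The members were highest as a group in parental cells. Their FPKM summed to 1547, 1617 and 1650 (lowest, median and highest library) in parental cells, to 1052, 1063 and 1095 in parental DTP cells, to 970.6, 1007 and 1048 in chemoresistant cells and to 931, 972 and 997 in chemoresistant DTP cells. No parental library overlapped with any of the other 3 groups. By group means, 37 of the 43 genes were highest in parental cells. The exceptions were MCM7, CDT1 and RFC4 (highest in chemoresistant cells), ORC6 (in chemoresistant DTP cells), and PRIM1 and RPA3 (in parental DTP cells). The lowest mean was in chemoresistant cells for 20 genes, in chemoresistant DTP cells for 17, in parental DTP cells for 5 and in parental cells for RFC4 alone. In parental cells the mean levels per length ran from 1.40 FPKM for POLA2, a subunit of the priming polymerase, to 245 FPKM for PCNA.

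The first comparison asked how persister cells of the parental line differ from the line itself. Of the 43 members, 33 were lower and 2 higher in parental DTP cells at an adjusted p under 0.05 (limma, Benjamini-Hochberg over all genes tested). Of all genes tested, 19.7% were lower and 45.8% higher. The median log2 difference of the members was -0.42, against 0.14 over all tested genes. Scaling the libraries by relative log expression factors (0.88 to 1.08 by library) gave 40 members lower and 0 higher, with 32.5% of all genes lower and 32.3% higher. Under it RPA3 and PRIM1 lost their calls as higher, and RPA2, RFC1, GINS3, GINS4, POLA2, TIMELESS and CDT1 were also lower. The libraries of both groups did not overlap for 32 members that were lower (13.0% of all tested genes) and for RPA3, which was higher (32.8%). A fall of at least 1 on the log2 scale was seen for 7 members, UHRF1, ORC1, MCM4, MCM5, MCM3, RRM2 and CLSPN, where 0.663% of all tested genes fell this far. FEN1, MCM10, PCNA and LIG1 also did so with relative log expression factors, 11 in all, against 1.34% of all genes.

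Chemoresistant cells that were not persisters also had most members lower than in the parental line. Here 39 were lower and 2, CDT1 and RFC4, higher, where 29.4% of all tested genes were lower and 48.2% higher. Their median log2 difference was -0.60, against 0.14 over all genes. With relative log expression factors 40 were lower and 0 higher (38.9% and 38.7% of all genes), since MCM7 became lower and CDT1 and RFC4 were not called. For 37 members lower in chemoresistant cells no library overlapped (22.6% of all tested genes), and RFC4 was higher without overlap (39.3%). A difference of -1 or lower on the log2 scale was seen for 12 members (UHRF1, MCM10, FEN1, GINS1, GINS2, MCM4, RRM2, ORC1, CLSPN, PCNA, MCM3 and CDC6), where 3.41% of all tested genes were this low. Both comparisons share the parental libraries.

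In the persister cells of the chemoresistant line members moved in both directions. From chemoresistant to chemoresistant DTP cells 10 members were lower and 14 higher, where 27.4% of all tested genes were lower and 20.5% higher. Members were thus lower in 23.3% and higher in 32.6% of cases, and their median log2 difference was 0.01, against -0.02 over all genes. The libraries did not overlap for 6 members lower (17.2% of all tested genes) and 6 higher (10.7%). No member changed by 1 or more on the log2 scale, where 1.03% of all tested genes fell and 0.357% rose this far. Without the second chemoresistant DTP library 11 were lower and 15 higher, and without chemoresistant libraries 2 and 3 they were 8 and 13. MCM2, POLD1, MCM10 and GINS3 lost their calls without the latter pair (adjusted p = 0.0876, 0.0768, 0.14 and 0.152).

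**Figure D1:**
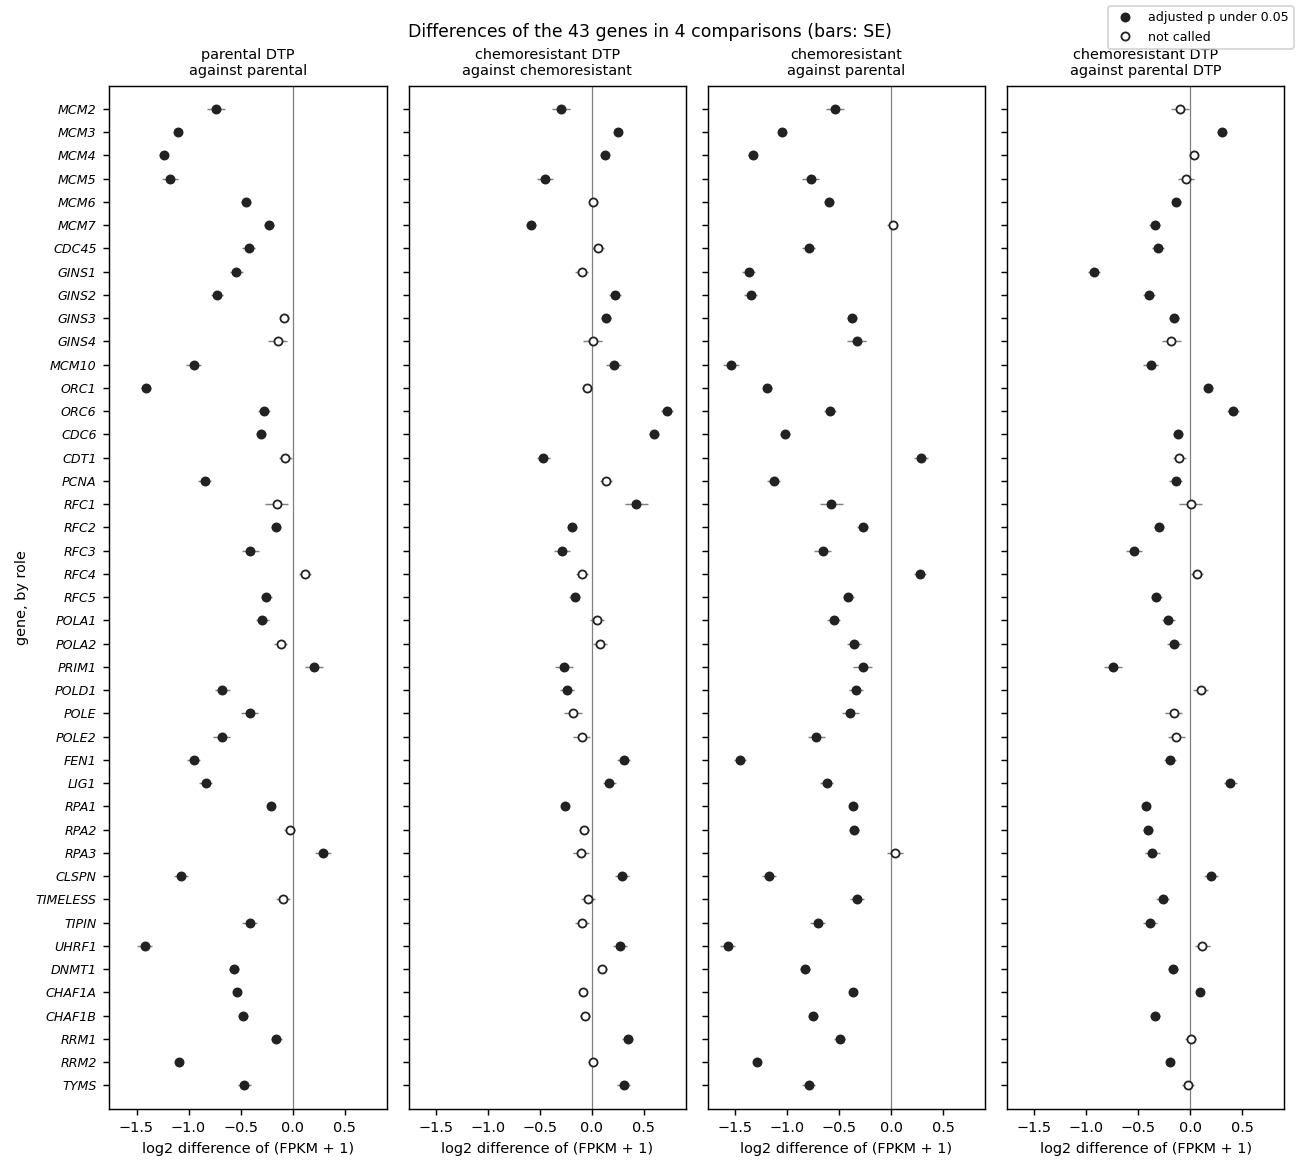
Log2 difference of (FPKM + 1) of each of the 43 genes (rows, by role) in 4 comparisons (panels), with SE bars and filled points where the adjusted p was under 0.05. Most points lie left of 0 in parental DTP against parental (33 called lower) and chemoresistant against parental (39), and on both sides of 0 in chemoresistant DTP against chemoresistant (10 lower, 14 higher).

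The MCM2-7 helicase subunits fell together in parental DTP cells, but by unequal amounts. MCM4 (ENSG00000104738, chromosome 8, 47960185 to 47978160, GRCh38) was at 72.7, 75.0 and 76.7 FPKM (lowest, median, highest) in parental, 28.4, 31.3 and 33.1 in parental DTP, 27.4, 29.2 and 30.8 in chemoresistant and 27.8, 32.5 and 34.0 in chemoresistant DTP libraries. All 6 parental libraries lay above every other library, while the other 3 groups overlapped. The log2 difference was -1.24 (SE 0.04, adjusted p = 1.9e-17) in parental DTP cells and -1.33 (SE 0.04, adjusted p = 8.65e-19) in chemoresistant cells. MCM3 (ENSG00000112118, chromosome 6, 52264009 to 52284881) was at 114, 122 and 124 FPKM in parental, 53.1, 55.5 and 57.4 in parental DTP, 52.7, 57.8 and 62.7 in chemoresistant and 66.3, 68.3 and 71.6 in chemoresistant DTP libraries. Its chemoresistant DTP libraries lay above both low groups and below the parental ones, and its rise from chemoresistant cells passed the test (log2 difference 0.25, SE 0.04, adjusted p = 1.14e-05).

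MCM5 went the other way in the chemoresistant line. It was at 49.1, 59.0 and 63.4 FPKM in parental, 19.3, 25.1 and 28.0 in parental DTP, 29.3, 31.8 and 38.1 in chemoresistant and 22.7, 23.5 and 24.8 in chemoresistant DTP libraries. It fell by 1.18 on the log2 scale in parental DTP cells and by 0.45 (SE 0.08, adjusted p = 4.27e-05) in chemoresistant DTP cells. MCM2 fell by 0.73 and by 0.29, and 23.6% of its exon bases are shared with genes on the opposite strand. MCM6 was lower in parental DTP and in chemoresistant cells (-0.45 and -0.60) and was not called in chemoresistant DTP cells (0.01, adjusted p = 0.819).

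MCM7 (ENSG00000166508, chromosome 7, 100092728 to 100101940) was the subunit that stood apart. It was at 154, 168 and 177 FPKM in parental, 129, 143 and 153 in parental DTP, 155, 166 and 184 in chemoresistant and 108, 110.4 and 114.5 in chemoresistant DTP libraries. Parental and chemoresistant libraries overlapped, and the chemoresistant DTP libraries lay below all others. The log2 difference of chemoresistant against parental cells was 0.01 (SE 0.05, adjusted p = 0.812), but with relative log expression factors it was -0.17 (adjusted p = 0.0215). MCM7 fell by 0.23 (SE 0.05, adjusted p = 0.000256) in parental DTP and by 0.59 (SE 0.05, adjusted p = 6.7e-10) in chemoresistant DTP cells. Of its exon bases 8.9% also lie in AP4M1 on the opposite strand, and the sources used here do not say whether counting used the strand.

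Because subunits moved unequally, the make-up of the helicase RNA differed between groups. MCM7 was 28.4%, 28.8% and 29.8% (lowest, median, highest library) of the summed MCM2-7 FPKM in parental cells, 38.6%, 40.4% and 42.1% in parental DTP, 41.7%, 43.01% and 44.03% in chemoresistant and 33.1%, 33.8% and 37.1% in chemoresistant DTP cells. MCM4 made up a median of 13.0%, 9.13%, 7.33% and 9.91% in the same order, and MCM3 20.9%, 15.8%, 14.5% and 21.1%. The MCM3 share of chemoresistant DTP libraries (20.5% to 21.7%) overlapped with that of parental libraries (20.3% to 21.8%), although the summed MCM2-7 level was 326 FPKM in the first and 588 in the second (medians). MCM2 held a median share of 20.4% to 21.2% in every group.

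**Figure D2:**
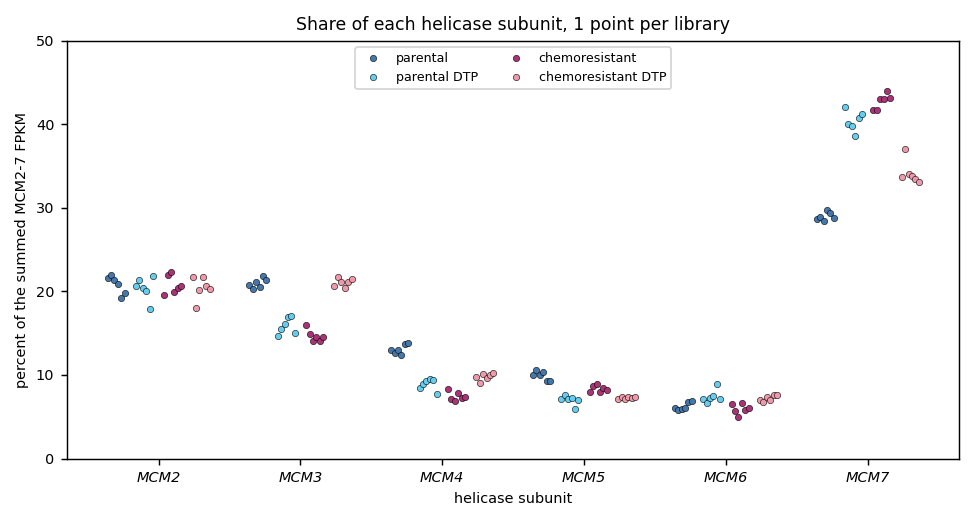
Share of each MCM2-7 subunit (x axis) in the summed FPKM of the 6 subunits (y axis, percent), 1 point per library, coloured by group. MCM7 has a median of 28.8% in parental, 40.4% in parental DTP and 43.01% in chemoresistant libraries, and the MCM2 share overlaps between all 4 groups.

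The factors that load the helicase at origins did not move as 1 block. ORC1 (ENSG00000085840, chromosome 1, 52372829 to 52404459), the large ATPase subunit of the origin recognition complex, was at 22.8, 23.1 and 24.1 FPKM in parental, 7.61, 8.10 and 8.99 in parental DTP, 9.30, 9.53 and 10.2 in chemoresistant and 8.18, 9.54 and 10.2 in chemoresistant DTP libraries. It fell by 1.41 on the log2 scale (SE 0.04, adjusted p = 2.68e-18) in parental DTP cells. Between the chemoresistant groups its difference was -0.05 (adjusted p = 0.412).

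CDC6 (ENSG00000094804, chromosome 17, 40287633 to 40304657), the ATPase that joins the complex to load MCM2-7, was at 26.9, 28.1 and 29.4 FPKM in parental, 20.6, 22.7 and 25.5 in parental DTP, 11.9, 13.4 and 14.7 in chemoresistant and 19.3, 20.7 and 22.6 in chemoresistant DTP libraries. Its lowest group was the chemoresistant line, and no library of that group overlapped with any other group. It rose by 0.60 (SE 0.05, adjusted p = 9.34e-10) in chemoresistant DTP cells, having been lower by 1.02 in chemoresistant than in parental cells. ORC6 (ENSG00000091651, chromosome 16, 46689643 to 46698394), the smallest subunit of the complex, was at 15.0, 16.2 and 17.4 FPKM in parental, 12.3, 13.1 and 14.3 in parental DTP, 8.82, 10.7 and 11.5 in chemoresistant and 16.2, 17.8 and 20.9 in chemoresistant DTP libraries. Its rise of 0.73 (SE 0.06, adjusted p = 2.81e-10) was the largest among the members in that comparison, and it was 0.68 (adjusted p = 2.97e-10) without the second chemoresistant DTP library, where ORC6 was highest.

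CDT1 (ENSG00000167513, chromosome 16, 88803213 to 88809258), the partner of CDC6 in loading, moved opposite to CDC6 from chemoresistant to chemoresistant DTP cells. It was at 40.1, 47.2 and 51.0 FPKM in parental, 37.3, 43.8 and 48.4 in parental DTP, 50.4, 56.7 and 61.1 in chemoresistant and 38.0, 39.8 and 44.5 in chemoresistant DTP libraries. CDT1 fell by 0.47 (SE 0.07, adjusted p = 2.9e-06) in chemoresistant DTP cells. In parental DTP cells its difference was -0.07 (adjusted p = 0.364), and -0.25 (adjusted p = 0.0118) with relative log expression factors. It was higher by 0.29 (SE 0.07, adjusted p = 0.00035) in chemoresistant than in parental cells, and by 0.11 (adjusted p = 0.244) with those factors.

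Ratios within a library do not depend on scaling between libraries. They can still carry the GC and length trends of single libraries, and were not computed with the GC trend removed. They were chosen after the values had been seen, so their p-values describe these libraries and are no independent support. In all, 24 exact two-sided permutation tests were run, whose smallest possible p is 0.00216. The ratio of CDT1 to GMNN, which encodes its inhibitor geminin, had a geometric mean of 2.19 in parental, 4.32 in parental DTP, 5.04 in chemoresistant and 3.40 in chemoresistant DTP cells (n = 6 each, exact permutation adjusted p = 0.00371 for either DTP comparison and for the lines). The CDC6 to ORC1 ratio was 1.21, 2.76, 1.38 and 2.22 in the same order, thus higher in both persister groups than in their lines (exact permutation adjusted p = 0.00371 for each). The MCM4 to MCM7 ratio was 0.452, 0.220, 0.174 and 0.287, lower in parental DTP and higher in chemoresistant DTP cells than in their lines (exact permutation adjusted p = 0.00371 for each). The POLE2 to POLE ratio was 0.554, 0.432, 0.411 and 0.434. Against parental cells it was lower in parental DTP and in chemoresistant cells (exact permutation adjusted p = 0.0142 and 0.00577). For chemoresistant DTP cells it did not pass against their line or against parental DTP cells (exact permutation adjusted p = 0.678 and 0.959).

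**Figure D3:**
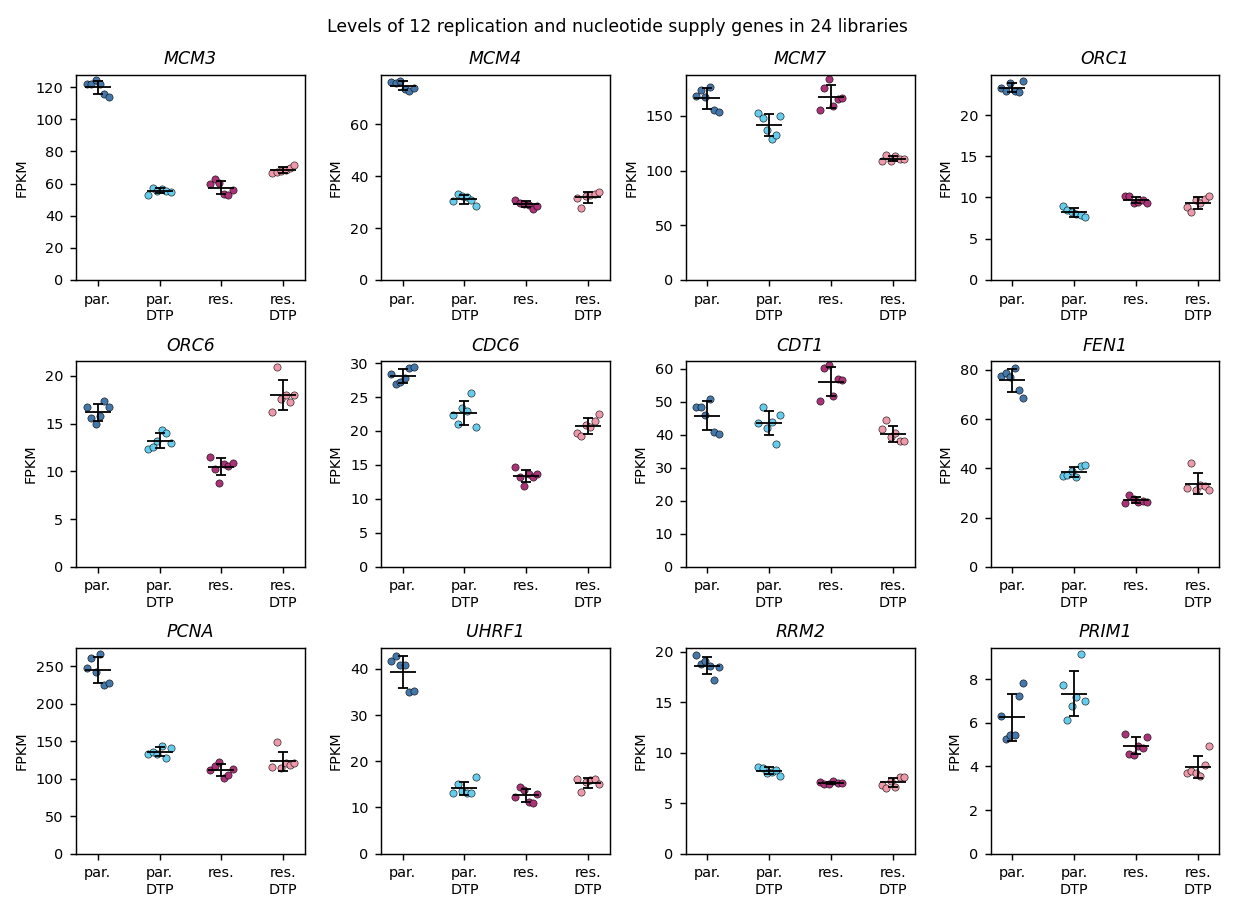
FPKM (y axis, from 0) of 12 of the genes in parental (par.), parental DTP, chemoresistant (res.) and chemoresistant DTP libraries, 1 point per library, with bars for the mean and SD of 6. MCM3, MCM4, ORC1, FEN1, PCNA, UHRF1 and RRM2 are highest in all 6 parental libraries, while MCM7 and CDT1 overlap between parental and chemoresistant libraries and ORC6 is highest on average in chemoresistant DTP libraries.

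Helicase activation genes were lower in chemoresistant than in parental cells in 6 of 6 cases. In this comparison 39 of the 43 members and 29.4% of all tested genes were lower. The median log2 difference of the helicase activation genes was -1.07, the lowest of the roles together with that of lagging strand joining (-1.04). MCM10 (ENSG00000065328, chromosome 10, 13161554 to 13211104), which helps CDC45 and GINS start the fork, was at 12.2, 12.9 and 14.04 FPKM in parental, 5.25, 6.43 and 6.95 in parental DTP, 3.09, 3.91 and 4.42 in chemoresistant and 3.55, 4.75 and 5.31 in chemoresistant DTP libraries. It fell by 0.95 (SE 0.07, adjusted p = 6.33e-11) in parental DTP cells and was lower by 1.54 (SE 0.07, adjusted p = 1.73e-15) in chemoresistant cells. GINS1 (ENSG00000101003, chromosome 20, 25407727 to 25452628) encodes a subunit of the GINS complex. It was at 7.43, 8.30 and 8.99 FPKM in parental, 4.84, 5.34 and 5.78 in parental DTP, 2.25, 2.62 and 2.96 in chemoresistant and 2.13, 2.23 and 2.75 in chemoresistant DTP libraries. Chemoresistant DTP cells held less GINS1 than parental DTP cells (log2 difference -0.93, SE 0.06, adjusted p = 1.59e-12), the largest log2 difference among the members in that comparison.

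The 4 GINS subunits form 1 complex, yet their RNAs moved by unequal amounts. GINS2 fell by 0.73 in parental DTP cells and was lower by 1.35 in chemoresistant cells. GINS3 and GINS4 differed by -0.08 and -0.14 in parental DTP cells and were not called (adjusted p = 0.15 and 0.177), and both were lower in chemoresistant cells (-0.38 and -0.33). Both were lower in parental DTP cells too with relative log expression factors (-0.23 and -0.30). CDC45 was lower by 0.42 and 0.79 in the same comparisons. In chemoresistant DTP cells GINS2, GINS3 and MCM10 rose by 0.22, 0.14 and 0.21. The call of GINS3 was lost without the third chemoresistant library (adjusted p = 0.0507), and that of MCM10 without the same library or the sixth chemoresistant DTP library (adjusted p up to 0.0673). Of the exon bases of GINS4, 23.6% are shared with genes on the opposite strand, and of those of GINS3, 10.9%.

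PCNA (ENSG00000132646, chromosome 20, 5114953 to 5126626), the sliding clamp and the most abundant member in parental cells, was at 224, 245 and 265 FPKM in parental, 128, 134 and 143 in parental DTP, 101, 112 and 122 in chemoresistant and 114, 119.7 and 149 in chemoresistant DTP libraries. It fell by 0.85 (SE 0.06, adjusted p = 1.48e-11) in parental DTP cells and was lower by 1.13 (SE 0.06, adjusted p = 1.71e-14) in chemoresistant cells. In chemoresistant DTP cells the difference was 0.14 (adjusted p = 0.0625). The clamp is opened by a loader of 5 subunits, RFC1 to RFC5, and against parental cells its subunits had smaller log2 differences than the clamp. In parental DTP cells RFC2, RFC3 and RFC5 fell by 0.16, 0.41 and 0.25, while RFC1 and RFC4 were not called (-0.15 and 0.12).

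RFC4 (ENSG00000163918, chromosome 3, 186789880 to 186807058) was the only member with its lowest mean in parental cells. It was at 14.7, 15.8 and 17.3 FPKM in parental, 16.2, 16.9 and 20.7 in parental DTP, 17.7, 19.6 and 20.9 in chemoresistant and 16.5, 18.4 and 19.4 in chemoresistant DTP libraries. Parental and chemoresistant libraries did not overlap, and the log2 difference was 0.28 (SE 0.06, adjusted p = 8.54e-05). With relative log expression factors it was 0.10 (adjusted p = 0.0556). RFC1, the large subunit, rose by 0.43 (SE 0.11, adjusted p = 0.00243) in chemoresistant DTP cells, and RFC2, RFC3 and RFC5 fell there by 0.19, 0.29 and 0.17.

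All 6 genes of the polymerases and primase were lower in chemoresistant than in parental cells, where 29.4% of all tested genes were lower. Their median log2 difference was -0.37. POLE2 (ENSG00000100479, chromosome 14, 49643555 to 49688422), the second subunit of leading strand polymerase epsilon, was at 6.53, 7.02 and 8.14 FPKM in parental, 3.12, 4.23 and 4.52 in parental DTP, 3.08, 4.20 and 4.60 in chemoresistant and 3.01, 3.55 and 4.58 in chemoresistant DTP libraries. The parental libraries lay above the other 3 groups, which overlapped. POLE2 fell by 0.68 (SE 0.08, adjusted p = 1.18e-07) in parental DTP cells, and its catalytic partner POLE by 0.41 (SE 0.08, adjusted p = 0.000126). POLD1, the catalytic subunit of lagging strand polymerase delta, fell by 0.67 in parental DTP and by 0.24 in chemoresistant DTP cells.

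PRIM1 (ENSG00000198056, chromosome 12, 56731596 to 56752373), the subunit that lays down the RNA primer, went against the other polymerase genes in parental DTP cells. It was at 5.25, 5.87 and 7.84 FPKM in parental, 6.12, 7.08 and 9.13 in parental DTP, 4.53, 4.87 and 5.47 in chemoresistant and 3.55, 3.75 and 4.92 in chemoresistant DTP libraries. The higher level in parental DTP cells passed the test only narrowly (log2 difference 0.20, SE 0.09, adjusted p = 0.047), and the libraries overlapped. Leaving out each of the 24 libraries in turn lost this call 15 times, with a log2 difference of 0.15 to 0.26 and an adjusted p of up to 0.144. With relative log expression factors the difference was 0.04 (adjusted p = 0.653). PRIM1 was lower in chemoresistant DTP than in parental DTP cells (-0.75, SE 0.09, adjusted p = 9.69e-08), with no overlap of libraries. Of its exon bases 16.2% are shared with other genes on the same strand, and of those of POLA2, 35.1%.

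Both genes that finish the lagging strand were lower in parental DTP and in chemoresistant cells and rose in chemoresistant DTP cells. FEN1 (ENSG00000168496, chromosome 11, 61792637 to 61797244), the nuclease that trims the flap, was at 68.5, 77.2 and 80.7 FPKM in parental, 36.5, 38.1 and 41.2 in parental DTP, 26.1, 26.5 and 29.2 in chemoresistant and 31.2, 32.6 and 42.0 in chemoresistant DTP libraries. It was lower by 0.95 (SE 0.06, adjusted p = 1.17e-12) and by 1.45 (SE 0.06, adjusted p = 7.6e-17) in the first 2 of these comparisons. Its rise in chemoresistant DTP cells was 0.31 (SE 0.06, adjusted p = 0.000153), and 0.24 (adjusted p = 6.77e-05) without the second library of that group, where FEN1 was highest. LIG1, the ligase that seals the nick, fell by 0.84 in parental DTP cells, was lower by 0.62 in chemoresistant cells, and rose by 0.17 (adjusted p = 0.0244) in chemoresistant DTP cells. That call was lost without any 1 of 5 libraries, chemoresistant 4 and 5 and chemoresistant DTP 3, 5 and 6 (adjusted p up to 0.0729).

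Replication protein A, which coats single-stranded DNA, had a median log2 difference of -0.03 over its 3 subunits in parental DTP cells, the nearest to 0 of the roles in that comparison. RPA3 (ENSG00000106399, chromosome 7, 7636518 to 7718607), the smallest subunit, was at 8.33, 8.84 and 9.44 FPKM in parental, 9.83, 10.55 and 13.1 in parental DTP, 8.12, 9.08 and 10.2 in chemoresistant and 7.55, 8.01 and 11 in chemoresistant DTP libraries. It was higher by 0.30 (SE 0.08, adjusted p = 0.0015) in parental DTP cells without overlap, and by 0.13 (adjusted p = 0.178) with relative log expression factors. RPA1 was lower by 0.20 in parental DTP, by 0.37 in chemoresistant and by 0.26 in chemoresistant DTP cells. RPA2 was lower in chemoresistant than in parental cells (-0.36). In parental DTP cells it differed by -0.03 and was not called, but by -0.21 (adjusted p = 0.00104) with relative log expression factors.

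Of the fork protection genes, CLSPN fell most. CLSPN (ENSG00000092853, chromosome 1, 35720218 to 35769967) encodes claspin, which couples the fork to the checkpoint kinase CHK1. It was at 4.39, 4.97 and 5.73 FPKM in parental, 1.54, 1.84 and 2.10 in parental DTP, 1.47, 1.66 and 1.98 in chemoresistant and 1.75, 2.34 and 2.54 in chemoresistant DTP libraries. The log2 difference was -1.07 (SE 0.07, adjusted p = 1.59e-12) in parental DTP cells, -1.17 (SE 0.07, adjusted p = 8.48e-14) in chemoresistant against parental cells and 0.29 (SE 0.07, adjusted p = 0.00111) in chemoresistant DTP cells. TIMELESS and TIPIN, which form a pair that travels with the fork, differed in parental DTP cells by -0.09 (adjusted p = 0.213) and -0.41 (adjusted p = 2.37e-05), and both were lower in chemoresistant cells (-0.33 and -0.70).

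The genes that restore DNA methylation and chromatin behind the fork were lower in all 4 cases in both comparisons against parental cells. Of all tested genes, 19.7% were lower in parental DTP and 29.4% in chemoresistant cells. UHRF1 (ENSG00000276043, chromosome 19, 4903080 to 4962154) recognises half-methylated DNA and brings in the methyltransferase DNMT1. It was at 34.9, 40.9 and 42.9 FPKM in parental, 13.1, 13.4 and 16.7 in parental DTP, 10.95, 12.6 and 14.5 in chemoresistant and 13.4, 15.7 and 16.2 in chemoresistant DTP libraries. The parental libraries lay far above the other 3 groups. The fall in parental DTP cells was 1.42 on the log2 scale (SE 0.07, adjusted p = 2.5e-14), and in chemoresistant cells UHRF1 was lower by 1.57 (SE 0.07, adjusted p = 6.83e-16), in each case the largest difference among the members on the log2(FPKM + 1) scale. By the plain ratio of group means, ORC1 in the first comparison and MCM10 and GINS1 in the second differed more.

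DNMT1 (ENSG00000130816, chromosome 19, 10133345 to 10231286) was at 20.9, 21.2 and 22.1 FPKM in parental, 13.2, 14.04 and 15.4 in parental DTP, 10.9, 11.5 and 12.5 in chemoresistant and 10.3, 12.9 and 13.3 in chemoresistant DTP libraries. DNMT1 fell by 0.56 in parental DTP cells and was lower by 0.83 in chemoresistant cells, against 1.42 and 1.57 for UHRF1. The UHRF1 to DNMT1 ratio was 1.84 in parental, 0.997 in parental DTP, 1.08 in chemoresistant and 1.23 in chemoresistant DTP cells (n = 6 each, exact permutation adjusted p = 0.00371 for parental DTP and for chemoresistant against parental). CHAF1A and CHAF1B, subunits of the factor that deposits histones on new DNA, fell by 0.54 and 0.48 in parental DTP cells and were lower by 0.36 and 0.75 in chemoresistant cells.

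In nucleotide supply the subunits of ribonucleotide reductase, which makes deoxynucleotides, parted. RRM2 (ENSG00000171848, chromosome 2, 10120698 to 10131419), the subunit whose level rises in S phase, was at 17.2, 18.7 and 19.7 FPKM in parental, 7.69, 8.23 and 8.59 in parental DTP, 6.89, 6.99 and 7.18 in chemoresistant and 6.54, 7.02 and 7.59 in chemoresistant DTP libraries. RRM1 (ENSG00000167325, chromosome 11, 4094707 to 4138876), the catalytic subunit, was at 58.3, 61.2 and 66.03, at 50.2, 55.1 and 60.2, at 39.7, 43.7 and 47.5 and at 48.7, 55.9 and 61.4 FPKM in the same groups. RRM2 stayed low in 3 groups, whereas RRM1 in chemoresistant DTP cells overlapped with the parental range. RRM2 fell by 1.09 (SE 0.04, adjusted p = 3.18e-17) in parental DTP cells, RRM1 by 0.16 (SE 0.05, adjusted p = 0.0134). The call of RRM1 was lost without parental libraries 5 and 6 (-0.12, adjusted p = 0.0848). In chemoresistant DTP cells RRM1 rose by 0.34 (SE 0.05, adjusted p = 1.08e-05) and RRM2 differed by 0.01 (SE 0.04, adjusted p = 0.907). Of the exon bases of RRM2, 20.2% are shared with AC007240.1 on the same strand.

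The RRM2 to RRM1 ratio was 0.303 in parental, 0.149 in parental DTP, 0.162 in chemoresistant and 0.128 in chemoresistant DTP cells, lower in each persister group than in its line (n = 6 each, exact permutation adjusted p = 0.00371 for both). TYMS (ENSG00000176890, chromosome 18, 657604 to 673578), thymidylate synthase and the target of fluorouracil, was at 25.6, 26.1 and 29.7 FPKM in parental, 17.4, 17.9 and 22.6 in parental DTP, 13.5, 15.2 and 16.2 in chemoresistant and 17.6, 18.5 and 20.2 in chemoresistant DTP libraries. It fell by 0.46 (SE 0.06, adjusted p = 4.13e-07) in parental DTP cells, was lower by 0.79 in chemoresistant cells and rose by 0.31 (SE 0.06, adjusted p = 0.000195) in chemoresistant DTP cells. Of its exon bases 46.6% lie in ENOSF1 or TYMSOS on the opposite strand, so its reads may be mixed with theirs.

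Whether the persister change differed between the lines was tested directly, as the difference of the log2 changes. In 29 members the change was higher in the chemoresistant line and in 5 it was lower, where 20.5% of all tested genes were higher and 43.4% lower. The median of this difference was 0.46 over the members and -0.17 over all genes, and with relative log expression factors 36 were higher and 1 lower (31.2% and 32.9% of all genes), with a median of 0.66. The difference was at least 1 on the log2 scale for 10 members, where 2.13% of all tested genes reached this. It was largest for UHRF1 (1.69, SE 0.10), MCM4 (1.37, SE 0.06), ORC1 and CLSPN (1.36 each) and MCM3 (1.35, SE 0.06). In all, 12 members fell in parental DTP and rose in chemoresistant DTP cells, ORC6 and CDC6 among them, where 7.01% of all tested genes did so. The rise of MCM4 among them (0.13) lost its call without chemoresistant library 5 or chemoresistant DTP library 6 (adjusted p up to 0.0542). The rises of LIG1 and MCM10 and the fall of RRM1 also lost their calls without some libraries, as given above. PRIM1, RPA3, CDT1, MCM7 and RFC4 had the lower change in the chemoresistant line (-0.47, -0.40, -0.40, -0.36 and -0.21), and with relative log expression factors PRIM1 alone of these was called (-0.29, adjusted p = 0.024). Both changes rest on separate libraries, and over the 43 genes they were nearly unrelated (Pearson r -0.18, Spearman rho -0.243, given as a description since the genes share libraries and their GC trend).

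**Figure D4:**
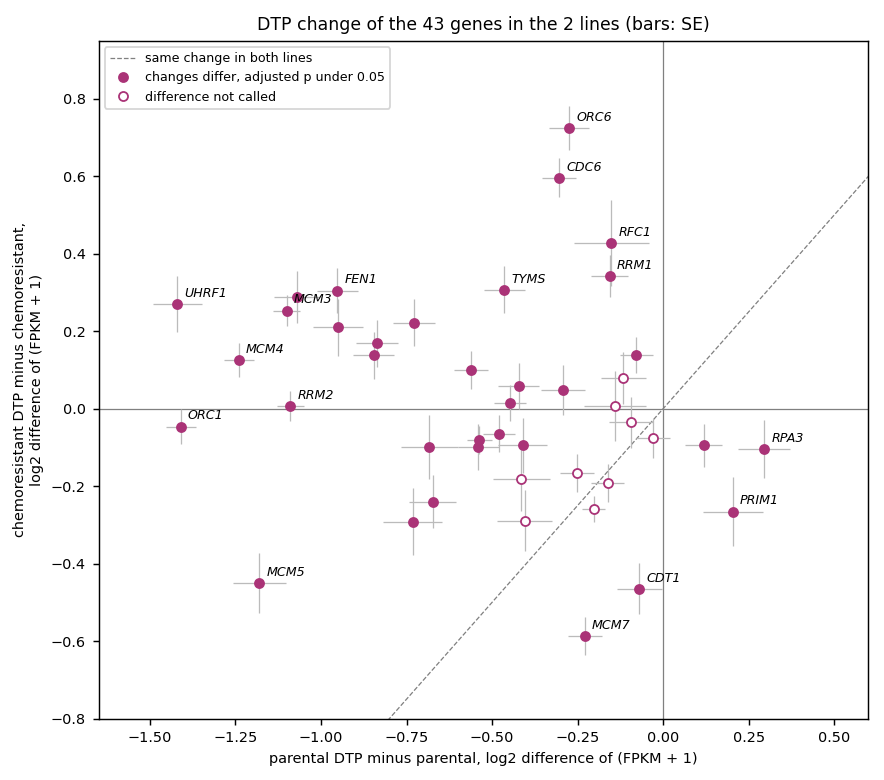
Log2 change of (FPKM + 1) from the line to its DTP cells, in the parental (x axis) and the chemoresistant line (y axis), 1 point per gene with SE bars, filled where the changes differ at an adjusted p under 0.05, with a dashed line where both would be equal. UHRF1, ORC1 and MCM4 lie far left, ORC6 and CDC6 lie at the top, and MCM7 and CDT1 at the bottom.

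The persister cells of both lines were also compared directly. Between chemoresistant DTP and parental DTP cells 24 members were lower and 6 higher, where 32.3% of all tested genes were lower and 29.5% higher. The members' median log2 difference was -0.16, against -0.02 over all genes. With relative log expression factors 21 were lower and 6 higher, since FEN1, PCNA and POLA2 were not called. Of 13675 genes 4232 were then lower and 4320 higher. Leaving out each of the 24 libraries in turn lost the call of PCNA 13 times, of CDC6 10, of POLA2 8 and of CHAF1A 5 times. The libraries did not overlap for 13 members lower (19.8% of all tested genes) and 3 higher (16.5%), which were MCM3, ORC6 and LIG1. The members lowest in chemoresistant DTP cells were GINS1 (-0.93), PRIM1 (-0.75), RFC3 (-0.54) and RPA1 (-0.43). Those highest were ORC6 (0.41, SE 0.06, adjusted p = 1.14e-06) and LIG1 (0.39, SE 0.06, adjusted p = 6.79e-06). UHRF1, MCM4, RRM1 and TYMS differed by 0.12, 0.03, 0.00 and -0.02 and were not called.

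The promoter words can be set beside these differences. Of the 20 members with an E2F word 17 were lower in parental DTP cells, with a median log2 difference of -0.50, and of the 18 without one 14 were lower, with a median of -0.34. In chemoresistant against parental cells 18 of 20 and 17 of 18 were lower, with medians of -0.69 and -0.54. CDT1, which was higher in chemoresistant cells, and MCM7, which was not called there (lower with relative log expression factors), both carry an E2F word, whereas ORC1, RRM2 and FEN1 do not carry one in this window. No test of this split was made.

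For the lists of other pathway genes below, the shares of all tested genes lower and higher were 19.7% and 45.8% in parental DTP cells. They were 29.4% and 48.2% in chemoresistant against parental cells, and 27.4% and 20.5% in chemoresistant DTP cells. With relative log expression factors they were 32.5% and 32.3% in the first and 38.9% and 38.7% in the second. In the third, 3448 of 13675 genes were then lower and 3241 higher. The rest of the licensing and firing machinery moved in both directions. In parental DTP cells 10 of 16 were lower and 4 higher, with a median log2 difference of -0.21. GMNN, the inhibitor of CDT1, fell by 0.98 (20.9 ± 0.822 FPKM, SD, n = 6, in parental and 10.1 in parental DTP cells), TICRR and RECQL4, both needed to fire origins, fell by 0.66 and 0.60, and ORC5 rose by 0.42. The origin recognition subunits ORC2, ORC3, ORC4 and ORC5 were all higher in parental DTP cells (0.20, 0.23, 0.30 and 0.42), while ORC1 and ORC6 fell. With relative log expression factors 12 of the 16 were lower and 1 higher, and of these 4 subunits ORC5 alone was called (0.25, adjusted p = 0.00195). In chemoresistant against parental cells 10 were lower and 1 higher, led by GMNN (-0.85), DBF4, the activator of the CDC7 kinase (-0.82), TICRR (-0.75) and MCM8 (-0.60). MCM8 was low (means of 1.19 FPKM in parental and 0.441 in chemoresistant cells) and entered the tests only through parental cells, where it was highest. With relative log expression factors 12 were lower and 0 higher there. In chemoresistant DTP cells 2 were lower and 2 higher.

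Of 23 other fork, polymerase and clamp genes tested, 14 were lower and 3 higher in parental DTP cells, 17 and 3 in chemoresistant against parental cells, and 3 and 9 in chemoresistant DTP cells. These counts were 17 and 2, 19 and 2, and 3 and 9 with relative log expression factors. POLD3, an accessory subunit of polymerase delta, fell by 0.80 in parental DTP cells and was lower by 1.56 in chemoresistant cells. POLD4, the small subunit of the same polymerase, rose by 0.47 and was higher by 0.76. Its level was low, with means of 0.377 FPKM in parental, 0.915 in parental DTP, 1.33 in chemoresistant and 0.989 in chemoresistant DTP cells. It entered the tests only through chemoresistant cells, where it was highest. ASF1A, a histone chaperone, was higher in all 3 comparisons (0.64, 0.81 and 0.41), whereas its close relative ASF1B fell by 0.46 in parental DTP and 0.25 in chemoresistant DTP cells. TOP2A, the topoisomerase of late S phase and mitosis, fell by 0.47 in parental DTP cells. TOP1 rose by 0.46 in chemoresistant DTP cells, the largest rise of the list there.

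Of 31 other nucleotide supply genes tested, 13 were lower and 8 higher in parental DTP cells, 21 and 8 in chemoresistant against parental cells, and 5 and 12 in chemoresistant DTP cells. These counts were 19 and 4, 21 and 4, and 5 and 13 with relative log expression factors. IMPDH1, the entry to guanine nucleotides, and CAD, the first enzyme of pyrimidine synthesis, fell by 1.00 and 0.91 in parental DTP cells, UMPS fell by 0.67 and ADSS2 rose by 0.64. SAMHD1, which destroys deoxynucleotides, was at 1.39 FPKM in parental, 1.49 in parental DTP, 8.88 in chemoresistant and 1.69 in chemoresistant DTP cells (means of 6). It was thus higher by 2.05 in chemoresistant than in parental cells and fell by 1.88 in chemoresistant DTP cells, more than any member of the 43. CTPS1 and PFAS, enzymes of cytidine and purine synthesis, were lower by 1.11 each in chemoresistant cells. MTHFD1, PAICS and GMPS each rose by 0.45 in chemoresistant DTP cells.

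Of 24 genes of the E2F, RB and DREAM regulators tested, 12 were lower and 6 higher in parental DTP cells, 13 and 4 in chemoresistant against parental cells, and 2 and 7 in chemoresistant DTP cells. These counts were 13 and 4, 17 and 4, and 2 and 8 with relative log expression factors. MYBL2 fell by 0.75 and E2F8 by 0.72 in parental DTP cells, and TFDP2, a partner of E2F factors, rose by 0.74. CDC25A, the phosphatase that frees CDK2 for S phase, was lower by 1.13 in chemoresistant cells. CDKN1A, which encodes the CDK inhibitor p21, was at 1.17, 2.42, 4.84 and 10.9 FPKM in parental, parental DTP, chemoresistant and chemoresistant DTP cells, and rose by 0.66, 1.42 and 1.02 in parental DTP, chemoresistant and chemoresistant DTP cells against their respective controls. How the level of CDKN1A relates to that of the members was not tested. Of 11 replication checkpoint genes 4 were lower and 3 higher in parental DTP cells, and 7 and 2 with relative log expression factors. HUS1 and RAD1 encode parts of the clamp that signals stalled forks. HUS1 fell by 0.50 in parental DTP cells and rose by 0.53 in chemoresistant DTP cells, and RAD1 was higher by 0.96 in chemoresistant than in parental cells.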

How the data were processed

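RNA sequencing of 24 libraries of KYSE450 cells was analysed. The authors deposited FPKM values (per the file headers) for 61251 genes and every library. The submitters' processing notes name GRCh38, whereas aligner, counter, annotation release and strandedness were not stated in these sources. FPKM values were whole multiples of 1 read for all 41101 genes above 0 (within 0.02 reads or a relative 5e-08), which gave the depths. No read at all would still be compatible with 3 reads (0.079 to 0.201 CPM by library), counting error only. limma 3.58.1 (R 4.3.3) with a mean-variance trend was fitted to log2(FPKM + 1) of all 24 libraries, keeping a gene if its mean was 1 FPKM or more in any group. This scale understates changes of low genes. Tests were two-sided, with Benjamini-Hochberg adjustment over 13729 genes within each of 5 comparisons and a threshold of 0.05. The fit was tested on simulated data. Members and lists were chosen with earlier results of these data known. All members may be named. Full values go to those with the largest difference of their role or against it, and pathway lists name up to 4 genes with the largest differences past the threshold per comparison. Other genes named from the lists (ORC2, ORC3, ORC4 and ASF1B) were chosen after their values were seen. Coordinates and exon overlaps come from GENCODE 29, promoters from RefSeq. Replicate numbers are from the labels. Deviations of same-numbered libraries correlated at -0.385 to 0.403, so the numbers were not taken as pairs.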

Additional observations from a re-analysis of the deposited data

Results flagged for a closer look

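In 17 of 172 groups of 6 libraries (9.88%, where chance gives about 1 in 20, or 8.6), the highest or lowest library lay far from the others. The second chemoresistant DTP library accounted for 9 of them. It was highest for RPA3 (11 FPKM, others 7.55 to 8.22), PCNA (148.9, others 114 to 121), FEN1 (41.96, others 31.2 to 33.4) and ORC6 (20.9, others 16.2 to 17.96). It was lowest for POLE (5.47, others 8.86 to 9.37), DNMT1 (10.28, others 12.6 to 13.3), TIMELESS (17.64, others 22.5 to 25.2), GINS4 (2.46, others 3.88 to 4.60) and UHRF1 (13.38, others 15.1 to 16.2). The fifth parental DTP library was highest for MCM6 (28.85 FPKM), GINS4 (5.81) and RFC4 (20.67). The sixth was lowest for GINS2 (12.8), RFC1 (15.18) and POLE2 (3.12). The third chemoresistant library was lowest for CHAF1B (3.64), and the fourth parental library was highest for TYMS (29.67).

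The persister change differed between the lines for 34 members in limma's test of the difference. Of all tested genes, the change was higher in the chemoresistant line for 20.5% and lower for 43.4%. The change in the chemoresistant line minus that in the parental line was 1.69 on the log2 scale for UHRF1, 1.37 for MCM4, 1.36 for ORC1, 1.36 for CLSPN and 1.35 for MCM3. It was 1.26 for FEN1, 1.16 for MCM10, 1.10 for RRM2, 1.01 for LIG1 and 1.00 for ORC6. For PCNA it was 0.98, for GINS2 0.95, for CDC6 0.90, for TYMS 0.77 and for MCM5 0.73. Values for DNMT1, POLE2, RFC1, RRM1 and CDC45 were 0.66, 0.59, 0.58, 0.50 and 0.48. Those for MCM6, CHAF1A, MCM2, GINS1 and POLD1 were 0.46, 0.46, 0.44, 0.44 and 0.44. CHAF1B, POLA1, TIPIN and GINS3 followed with 0.42, 0.34, 0.32 and 0.22. The change was lower in the chemoresistant line for PRIM1 (-0.47), RPA3 (-0.40), CDT1 (-0.40), MCM7 (-0.36) and RFC4 (-0.21). With relative log expression factors RPA3, CDT1, MCM7 and RFC4 lost this call.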

How the results depend on the processing

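No member's log2 difference that was called changed sign under any alternative run. With relative log expression factors, voom on recovered reads and the GC trend removed (the last 2 chosen after seeing the data), the members' median was -0.60, -0.64 and -0.59 in parental DTP against parental cells, -0.77, -0.87 and -0.73 in chemoresistant against parental cells (-0.68 with a pseudocount of 0.1), and 0.66, 0.69 and 0.63 for the difference of the changes. The same 3 settings left 0, 0 and 0 members higher in parental DTP cells, 0, 0 and 1 higher in chemoresistant cells, and 1, 1 and 3 with a lower change in the chemoresistant line. The count of 2 higher in parental DTP cells was 1 with a pseudocount of 0.1, with no filter, with only the libraries of both groups, without parental DTP libraries 5 and 6, and without chemoresistant libraries 2 and 3, and PRIM1 is the gene lost. Without parental libraries 5 and 6 (this pair and the chemoresistant pair were chosen after seeing the data) 33 were lower and 3 higher there, and 38 lower in chemoresistant cells. Leaving out 1 library in turn gave 1 to 3 members higher and 33 to 34 lower there, 39 lower in chemoresistant against parental cells, and 11 to 15 higher and 10 to 11 lower in chemoresistant DTP cells. For persisters of both lines it gave 21 to 24 lower and 5 to 8 higher, and for the difference of the changes 29 to 31 higher. Between the persisters of both lines, 4 members lost their call and 2 gained one with the GC trend removed. Without parental DTP libraries 5 and 6 these numbers were 5 and 2, and with only the libraries of both groups 5 and 0. The replicate block gave 33 lower and 2 higher, 10 and 15, 39 and 2, 24 and 6, and 5 and 29 in the 5 comparisons, and same-numbered libraries were closest to their own number in at most 1 of 6 pairs. edgeR and DESeq2 had been planned and were not run, because the deposited values are FPKM. A fit of only the groups compared was not run for the difference of the changes, which uses all 4 groups. Depth did not limit these genes, whose lowest count was 88 reads.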
